A study of Mus musculus with 6 samples.

Results

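The MLL and SET1 methyltransferases, menin and shared subunits of their complexes were compared between *Mll1KO* and wild-type (WT) retinas at postnatal day 14 (P14). The family was taken by gene symbol as *Kmt2a*, *Kmt2b*, *Kmt2c*, *Kmt2d*, *Kmt2e*, *Setd1a*, *Setd1b*, *Men1*, *Wdr5* and *Ash2l*, and all 10 were among the 11339 genes of the deposited expression table. The question was whether the loss of MLL1, the product of *Kmt2a*, came with higher or lower expression of its relatives. RNA-seq was performed on 3 *Mll1KO* and 3 WT samples, named a, b and c in each genotype, and values per library are given in that order. *Mll1KO* mice were homozygous for a floxed *Mll1* allele and carried a transgene with which Cre is made in the progenitors of the retina, in a line known to recombine in a mosaic of cells. Cells of the retina that do not arise from these progenitors, such as vessels and microglia, and cells missed by Cre therefore keep the intact gene. The WT mice were of the strain C57Bl6/J, as labelled for all samples, and neither a floxed allele nor the transgene was named for them, so that the effect of Cre itself cannot be told apart from that of the deletion. Each sample was a separate biological replicate made from a pair of retinas, and p-values measure the spread between such samples. Whether both retinas of a sample came from the same mouse was not stated. The labels give no sex, and the sex-linked RNA *Xist*, described at the end, was even among the WT samples but not among the *Mll1KO* samples. The part of sex in the spread was not tested. The libraries held between 17961098 and 23836034 counted reads, and no gene of the family had fewer than 601 reads in a library.

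Active promoters and enhancers carry histone H3 that is methylated at lysine 4 (H3K4). MLL1 and MLL2 (*Kmt2b*) are known for H3K4 methylation at selected promoters, MLL3 (*Kmt2c*) and MLL4 (*Kmt2d*) for monomethylation at enhancers, and SETD1A and SETD1B for most of the trimethylation at active promoters. These enzymes work in complexes with WDR5 and ASH2L, while menin, the product of *Men1*, tethers MLL1 and MLL2 to chromatin. MLL5 (*Kmt2e*) carries a SET domain but is not known to methylate H3K4 in such a complex.

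*Kmt2a*, the targeted gene, was at 36.1, 36.9 and 34.6 RPKM (reads relative to gene length and to all counted reads) for the WT libraries and 22.9, 20.4 and 22.3 RPKM for the *Mll1KO* libraries. Every *Mll1KO* sample was far below every WT sample. The mean level fell from 35.9 ± 1.17 to 21.8 ± 1.27 RPKM (SD, n = 3 each), which is 60.9% of WT. On the scale of log2(RPKM + 1), which is used throughout, the change was -0.69 ± 0.05 (log2 fold change and standard error), and limma gave an adjusted p of 2.77e-05. Of the 11339 genes, 49 had a lower log2 fold change than *Kmt2a*.

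**Figure D1:**
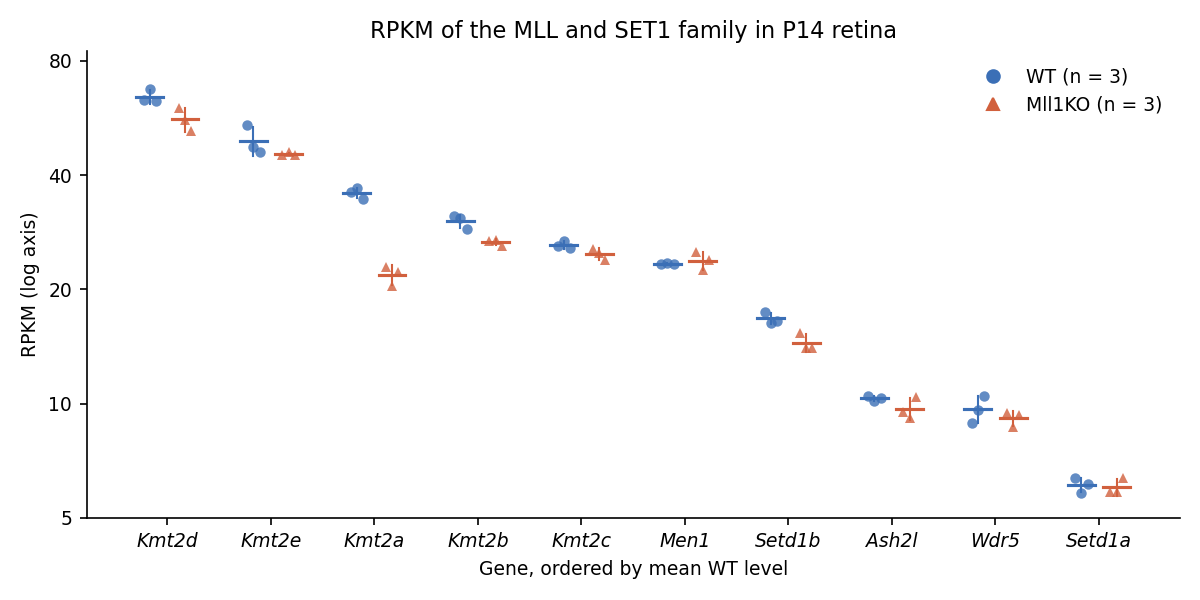
RPKM on a log axis of the 10 family genes in P14 retina, ordered by mean WT level. Points are libraries (3 WT, 3 *Mll1KO*), horizontal bars are group means and vertical bars are 1 SD. The *Kmt2a* values of *Mll1KO*, between 20.4 and 22.9 RPKM, stand well below the WT values, and no gene is shifted upward as a group.

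The RPKM of *Kmt2a* counts reads over the whole gene, which lies at chr9:44803355-44881296 on the minus strand (GRCm38) and has 36 exons in its main transcript. The floxed alleles have LoxP sites around exons 3 and 4, which encode nuclear localization signals. Exon 3, at chr9:44847404-44850054, has 2651 bases and exon 4, at chr9:44846853-44847030, has 178 bases. Both are coding throughout, and their 2829 bases are 23.8% of the coding sequence but only 17.0% of the gene length behind the RPKM. If every transcript lacked these exons and the number of transcripts were the same, the WT mean would become 29.8 RPKM, and all 3 *Mll1KO* values were below that level. Reads per exon are not part of the table, so the remaining *Kmt2a* RNA in *Mll1KO* could not be divided into intact and shortened transcripts.

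The sequences around the excision are shown because they define what a recombined *Kmt2a* transcript would look like. They were read from the reference transcript and not from these libraries. Capitals mark bases of exons 3 and 4, lower case marks the exons that remain, and 15 bases are shown on each side of a junction.
Exon 2 to exon 3: ccaggtctccttcagTTAAAGCTAGTCCTC
Exon 4: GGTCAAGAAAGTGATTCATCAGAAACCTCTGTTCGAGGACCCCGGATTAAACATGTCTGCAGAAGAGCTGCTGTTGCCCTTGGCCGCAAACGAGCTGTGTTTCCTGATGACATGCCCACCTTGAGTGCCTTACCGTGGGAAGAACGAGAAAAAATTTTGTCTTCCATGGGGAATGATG
Exon 4 to exon 5: CCATGGGGAATGATGacaagtcatcagttg
Exon 2 joined to exon 5: ccaggtctccttcagacaagtcatcagttg
The excised length is a multiple of 3 bases, or 943 codons. In the joined sequence the frame was therefore kept, with 3020 codons before the stop in place of 3963.

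**Figure D2:**
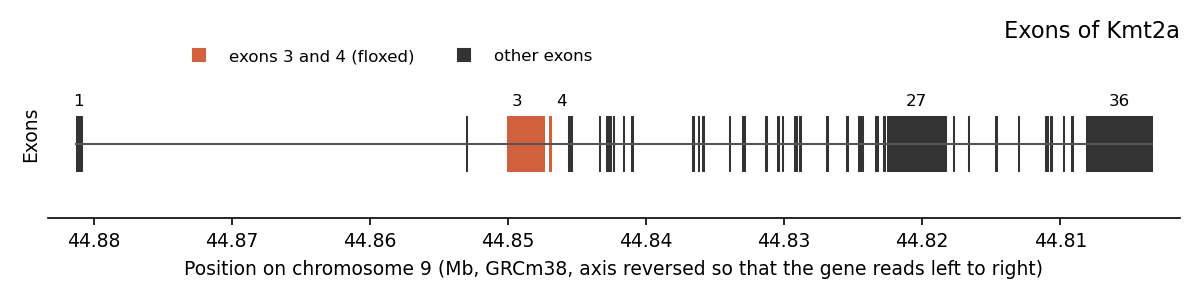
Exons of *Kmt2a* to scale on chromosome 9 (position in Mb, GRCm38), with the axis reversed so that the gene reads from left to right. Boxes are the 36 exons of the main transcript, and exons 3 and 4, which are floxed, are coloured; they take up 17.0% of the gene length behind the RPKM.

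None of the other 9 genes passed the test as higher in *Mll1KO*. With limma at an adjusted p of 0.05, 4 of the 10 family genes were called, against 23.3% of all genes. These 4 were *Kmt2a*, *Kmt2b*, *Kmt2d* and *Setd1b*, and each was lower in *Mll1KO*, a direction in which 14.5% of all genes were called. No gene of the family was called higher, against 8.81% of all genes, and none was higher at an unadjusted p of 0.05 either. The median log2 fold change was -0.10 over the 10 genes, -0.09 without *Kmt2a*, and -0.03 over all 11339 genes.

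*Kmt2b*, at chr7:30568858-30588726 on the minus strand, encodes MLL2, the closest relative of MLL1. It was at 31.1, 30.8 and 28.9 RPKM for the WT libraries and 26.8, 27.0 and 26.1 RPKM for the *Mll1KO* libraries. The genotypes did not overlap, and the *Mll1KO* samples lay close together below the lowest WT sample. The *Mll1KO* mean was 87.9% of WT (log2 fold change -0.18 ± 0.04 SE, adjusted p = 0.0143 by limma). Without WT sample b the limma adjusted p was 0.0606 and without *Mll1KO* sample c it was 0.0592. The log2 fold change stayed between -0.21 and -0.16 whichever library was left out. By RNA-seq and qRT-PCR, the paper described RNA of MLL2 and MLL3 in *Mll1KO* retina as similar in level to that of normal retina.

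*Kmt2d*, at chr15:98831669-98871204 on the minus strand, encodes the enhancer methyltransferase MLL4 and was the most abundant gene of the family. Its level was 63.2, 67.5 and 62.5 RPKM for the WT libraries and 60.1, 55.8 and 52.2 RPKM for the *Mll1KO* libraries. All *Mll1KO* values were below all WT values, and *Mll1KO* sample a came closest to WT. The *Mll1KO* mean was 87.0% of WT (log2 fold change -0.20 ± 0.05 SE, adjusted p = 0.0278 by limma). The call was lost without WT sample a (limma adjusted p = 0.0520), WT sample b (0.105), *Mll1KO* sample b (0.0692) or *Mll1KO* sample c (0.103), and also with TMM-type (0.0535) or median-of-ratios (0.0584) scaling of the libraries. Whichever library was left out, which also leaves fewer samples, the log2 fold change stayed between -0.25 and -0.15, at -0.21 without WT sample a and -0.20 without *Mll1KO* sample b. *Kmt2c*, which encodes the partner enzyme MLL3, ranged from 25.7 to 26.8 RPKM in WT and from 23.9 to 25.6 RPKM in *Mll1KO*. These ranges were just separate, but the difference did not pass the test (log2 fold change -0.08, 95% interval from -0.17 to 0.02, limma adjusted p = 0.222).

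*Setd1b* and *Setd1a* encode the catalytic subunits of the SET1 complexes. *Setd1b*, at chr5:123142193-123168629 on the plus strand, had levels of 17.4, 16.3 and 16.5 RPKM for the WT libraries and 15.36, 14.03 and 14.03 RPKM for the *Mll1KO* libraries. Its genotypes did not overlap, and the *Mll1KO* mean was 86.4% of WT (log2 fold change -0.20 ± 0.05 SE, adjusted p = 0.0194 by limma). The call was lost without WT sample a (limma adjusted p = 0.0621), *Mll1KO* sample b (0.0643) or *Mll1KO* sample c (0.0750), with log2 fold changes between -0.24 and -0.17 over the libraries left out. *Setd1a* was the least abundant gene of the family, with 5.83 to 6.36 RPKM in WT and 5.84 to 6.36 RPKM in *Mll1KO*. The ranges of *Setd1a* covered each other almost completely (log2 fold change -0.02, 95% interval from -0.14 to 0.11, limma adjusted p = 0.851). Its level is uncertain, since 52.3% of its annotated exon bases also belong to other gene models, nearly all of them on the same strand.

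*Kmt2e*, which encodes MLL5, was at 54.1, 47.3 and 45.9 RPKM for the WT libraries and 45.3, 45.9 and 45.2 RPKM for the *Mll1KO* libraries. WT sample a stood above the other libraries, while WT sample c and *Mll1KO* sample b were almost equal. The difference did not pass the test (log2 fold change -0.11, 95% interval from -0.23 to 0.02, limma adjusted p = 0.211). Of its exon bases in the annotation used here, 9.31% are shared with *Srpk2* on the opposite strand, but these exons have 10444 bases against a length of 7492 bases behind the RPKM, so that the share in the authors' model may differ. Whether the counting used strand was not given in the sources used here.

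The noncatalytic members showed overlapping genotypes. *Men1*, which encodes menin, was at 23.3, 23.5 and 23.3 RPKM for the WT libraries and 25.0, 22.5 and 23.9 RPKM for the *Mll1KO* libraries. WT values of *Men1* were nearly identical, and the *Mll1KO* values fell on either side of them. It was the only gene of the family with a log2 fold change above 0, at 0.02 (95% interval from -0.08 to 0.13, limma adjusted p = 0.744), and without *Mll1KO* sample a even this sign was turned (-0.011). *Wdr5*, the scaffold subunit of all these complexes, ranged from 8.88 to 10.4 RPKM in WT and from 8.68 to 9.42 RPKM in *Mll1KO* (limma adjusted p = 0.454). *Ash2l*, a subunit that stimulates the catalytic step, ranged from 10.2 to 10.5 RPKM in WT and from 9.16 to 10.4 RPKM in *Mll1KO* (limma adjusted p = 0.277). Neither gene was separated by genotype. For the 6 genes without a call, the upper ends of the 95% intervals lay between 0.02 (*Kmt2c*) and 0.13 (*Men1*) on the log2 scale, so that a rise above these bounds was outside the interval of each gene. These bounds hold for whole-retina RNA with the deposited scaling to library totals, and levels per cell were not measured. Median-of-ratios factors moved the median of all genes up by 0.03 on this scale.

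**Figure D3:**
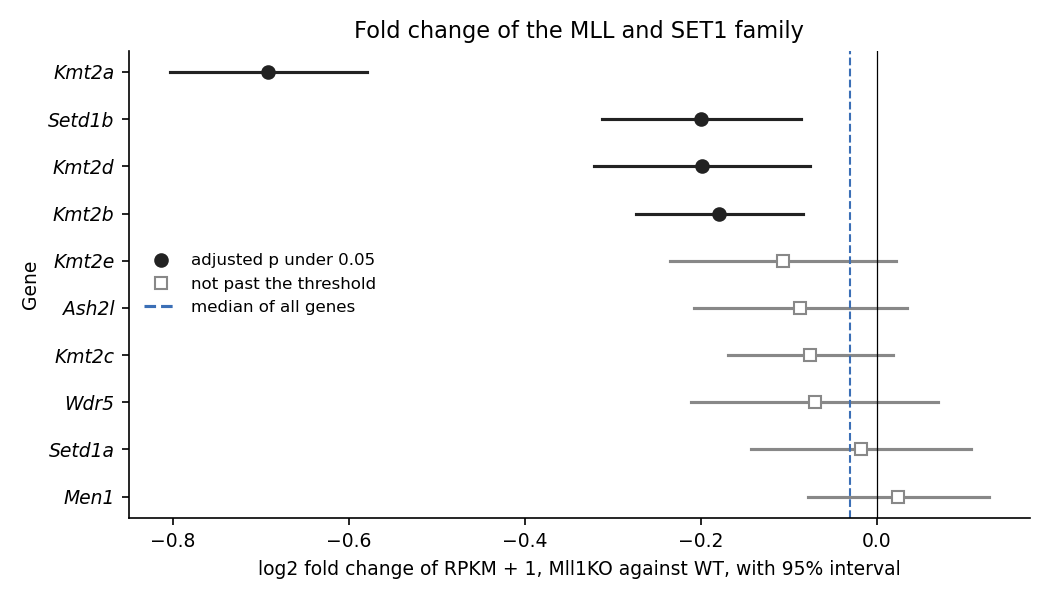
Log2 fold change of RPKM + 1 in *Mll1KO* against WT for the 10 family genes (points) with 95% intervals from limma (lines). Filled circles passed an adjusted p of 0.05 and open squares did not; the dashed line is the median of all 11339 genes at -0.03. *Kmt2a* at -0.69 stands apart from *Setd1b*, *Kmt2d* and *Kmt2b*, which lie between -0.20 and -0.18.

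Counted without a test, 6 of the 10 genes had all 3 *Mll1KO* values below all 3 WT values, as did 26.5% of all genes. These were *Kmt2a*, *Kmt2b*, *Kmt2c*, *Kmt2d*, *Kmt2e* and *Setd1b*, which are 6 of the 7 genes with a SET domain. The gap was narrow for *Kmt2c*, with 25.58 RPKM in *Mll1KO* sample a against 25.69 RPKM in WT sample c. For *Kmt2e* it was smaller still, with 45.9 RPKM in *Mll1KO* sample b against 45.94 RPKM in WT sample c. Non-overlap was counted with the deposited scaling only, so whether these genes stay separate under other factors was not tested. No gene of the family had all *Mll1KO* values above all WT values, against 14.6% of all genes. The share of lower calls depended on scaling, because the median gene was itself slightly lower in *Mll1KO*. Of all calls, 62.2% were lower with the deposited scaling to library totals, 48.6% with TMM-type factors and 46.9% with median-of-ratios factors. With either set of factors *Kmt2a*, *Kmt2b* and *Setd1b* were called lower, *Kmt2d* was not, and no gene of the family was called higher.

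The 4 genes called lower are among the long ones of the family, but *Kmt2c*, the longest at 20291 bases, was not called. *Kmt2a*, *Kmt2b*, *Kmt2c*, *Kmt2d* and *Setd1b* belonged to the longest of 10 equal groups of genes ordered by the length behind the RPKM, from 9089 bases upward, whereas *Men1*, the shortest of the family at 3458 bases, lay below the median length of all genes, 4170 bases. In that group of 1134 genes 21.1% were called lower and 7.0% higher, and the median log2 fold change was -0.05, against 11.6% lower, 8.6% higher and a median of -0.01 in the group of shortest genes. When a smooth trend on gene length was removed from each library, an alternative chosen after seeing the data, *Kmt2a* had a log2 fold change of -0.62 (limma adjusted p = 4.09e-05) and was the only gene of the family past the threshold. *Kmt2b* was then at -0.13 (limma adjusted p = 0.0509), *Setd1b* at -0.14 (0.0694) and *Kmt2d* at -0.12 (0.0871).

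In WT the levels, which RPKM sets on a scale per length, were ordered *Kmt2d* (64.4 ± 2.69 RPKM, mean and SD, n = 3), *Kmt2e* (49.1 ± 4.35), *Kmt2a* (35.9 ± 1.17), *Kmt2b* (30.3 ± 1.19), *Kmt2c* (26.2 ± 0.570), *Men1* (23.4 ± 0.121), *Setd1b* (16.8 ± 0.596), *Ash2l* (10.3 ± 0.147), *Wdr5* (9.66 ± 0.785) and *Setd1a* (6.10 ± 0.267). Only the neighbours *Ash2l* and *Wdr5* overlapped between WT samples. *Kmt2d* was above 95.1% of all genes in its WT level and *Setd1a* above 32.9%, so that the family spans much of the range of the table. In *Mll1KO* the order was the same except that *Kmt2a*, at rank 3 in WT, moved to rank 6, behind *Kmt2b*, *Kmt2c* and *Men1*. This rank depended on the length used. If every *Mll1KO* transcript lacked exons 3 and 4, a calculation chosen after seeing the data, the *Kmt2a* level per length kept would be 26.3 RPKM in *Mll1KO*, or 73.4% of WT, at rank 4 between *Kmt2b* (26.6 RPKM) and *Kmt2c* (24.8 RPKM). With the whole length the *Mll1KO* ranges of *Kmt2c* and *Men1*, of *Men1* and *Kmt2a* and of *Ash2l* and *Wdr5* overlapped, but within each *Mll1KO* library *Men1* was above *Kmt2a* and *Ash2l* above *Wdr5*.

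The levels of the 7 genes with a SET domain, *Kmt2e* included, were also summed. The sum, to which *Kmt2a* and the genes called above contribute, was 234, 231 and 220 RPKM for the WT libraries and 202, 194 and 190 RPKM for the *Mll1KO* libraries. All *Mll1KO* sums were below all WT sums, with a mean of 85.4% of WT (p = 0.1 in a two-sided exact permutation test, which cannot give less with 3 libraries per genotype and so could not pass 0.05). Without *Kmt2a*, the other 6 genes summed to 193 ± 6.46 RPKM in WT and 173 ± 5.61 RPKM in *Mll1KO* (SD, n = 3 each), or 89.9% of WT, again without overlap (exact permutation p = 0.1). Since MLL5 is not known as an H3K4 methyltransferase, the sums were also taken without *Kmt2e*, which was chosen after seeing the data. They were at 83.4% of WT for the 6 H3K4 methyltransferases and at 89.0% for the 5 without *Kmt2a*, both without overlap (exact permutation p = 0.1 each). For *Men1*, *Wdr5* and *Ash2l* together the sums overlapped, at 98.3% of WT (exact permutation p = 0.8).

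The make-up of the sum of the 6 H3K4 methyltransferases, without *Kmt2e*, was compared as shares of RPKM over the whole gene length. The share of *Kmt2a* was 20.04%, 20.04% and 19.85% for the WT libraries and 14.61%, 13.80% and 15.37% for the *Mll1KO* libraries. *Kmt2b* had shares of 16.9% ± 0.360 in WT and 17.8% ± 0.579 in *Mll1KO* (SD, n = 3 each), with overlapping samples. Higher shares in every *Mll1KO* sample were seen for *Kmt2c*, at 16.6% against 14.6% in WT, and *Setd1a*, at 4.03% against 3.40%, although neither had a higher level. The level of *Kmt2b* relative to *Kmt2a* was 0.861, 0.834 and 0.836 in WT and 1.17, 1.32 and 1.17 in *Mll1KO* over the whole gene length. With *Kmt2a* of *Mll1KO* per length kept, these ratios would be 0.973, 1.096 and 0.972, still above every WT ratio, so that *Kmt2a* was the more abundant of these paralogs in every WT sample but their order in *Mll1KO* depended on the length. *Men1* relative to *Kmt2a* went from 0.652 ± 0.0191 in WT to 1.09 ± 0.0141 in *Mll1KO* (SD, n = 3 each), or to 0.905 ± 0.0117 per length kept. In these ratios *Kmt2a* fell, and neither partner was called higher.

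Further subunits of the complexes were compared in the same way, and their calls stand beside 14.5% of all genes called lower and 8.81% called higher. The core subunits *Dpy30* and *Rbbp5* did not pass the test, but *Dpy30* came close, with 35.1 RPKM in WT and 31.3 RPKM in *Mll1KO*, no overlap and a limma adjusted p of 0.0511. The SET1 cofactors *Cxxc1* and *Wdr82* were not called either, with log2 fold changes of -0.09 each. Of 5 cofactors of MLL1 and MLL2, *Hcfc2*, a relative of the host cell factor HCF1, was lower (6.83 RPKM in WT, 5.72 RPKM in *Mll1KO*, log2 fold change -0.22, limma adjusted p = 0.0277), and the others lay between *Hcfc1* at -0.10 and *Tasp1*, the protease that cleaves MLL1, at 0.12. The call of *Hcfc2* was lost without WT sample b and without *Mll1KO* samples b or c, with a limma adjusted p of up to 0.108.

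Of 4 cofactors of MLL3 and MLL4, 1 was called in each direction, against 14.5% of all genes called lower and 8.81% called higher. *Ncoa6*, a coactivator subunit, was at 28.3 RPKM in WT and 24.9 RPKM in *Mll1KO* (log2 fold change -0.18, limma adjusted p = 0.0378), but it passed under only 5 of 15 alternatives, with an adjusted p of up to 0.124. *Pagr1a* was higher, at 5.08 RPKM in WT and 6.46 RPKM in *Mll1KO* (log2 fold change 0.29, limma adjusted p = 0.0115) and under all 15 alternatives, although 98.7% of its annotated exon bases are shared with other gene models on the same strand. The share refers to the annotation used here, in which the exons of *Pagr1a* have 1430 bases against a length of 4405 bases behind its RPKM, so that the model counted by the authors may differ. Of those not called, *Paxip1* was lowest at -0.16 and *Kdm6a*, an X-linked H3K27 demethylase gene with a low value in *Mll1KO* sample b, highest at 0.01.

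Outside the family, another H3K4 methyltransferase was higher in *Mll1KO*. The calls in this paragraph stand beside 14.5% of all genes called lower and 8.81% called higher. *Setd7*, which monomethylates H3K4 and several nonhistone proteins, was at 9.97, 9.89 and 9.98 RPKM for the WT libraries and 13.7, 12.6 and 12.5 RPKM for the *Mll1KO* libraries. The groups were widely separate (log2 fold change 0.34 ± 0.05 SE, adjusted p = 0.00111 by limma), and the call held under all 15 alternatives. The other 4 genes in the table that were grouped with *Setd7* here were not called, from *Ash1l* at -0.05 to *Prdm9* at 0.22. Among 5 listed H3K4 demethylases *Kdm1b* was lower, from 5.64 RPKM in WT to 4.40 RPKM in *Mll1KO* (log2 fold change -0.30, limma adjusted p = 0.0116), under all 15 alternatives too. Of its annotated exon bases, 9.2% are shared with *Dek* on the opposite strand. *Kdm5a* at -0.08 and *Kdm5c*, also X-linked and low in *Mll1KO* sample b, at 0.15 were the lowest and highest of the rest. Of 11 genes for proteins that bind methylated H3K4, 10 did not pass, from *Phf8* at -0.17 to *Ing1* at 0.09, and *Ing5* was higher (3.27 RPKM in WT, 3.88 RPKM in *Mll1KO*, limma adjusted p = 0.0440), with the call held under 9 of 15 alternatives and an adjusted p of up to 0.144.

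Genes known as targets of MLL1 or menin in blood, brain or endocrine tissue did not move in a common direction. Of 13 such genes 5 were listed, and *Hoxa7*, *Hoxa9* and *Hoxa10* were not among them. *Meis1*, a homeobox gene kept on by MLL1 in leukaemia, was at 9.37, 9.40 and 9.40 RPKM in WT and at 6.30, 6.18 and 6.14 RPKM for the *Mll1KO* libraries. It fell by 0.53 on the log2 scale (0.05 SE, adjusted p = 7.26e-05 by limma), less than *Kmt2a* with its log2 fold change of -0.69. Of the annotated exon bases of *Meis1*, 18.3% are shared with other gene models. *Cdkn1b*, which encodes the cell cycle inhibitor p27, was lower at a log2 fold change of -0.16 (limma adjusted p = 0.0445), a call that held under 5 of 15 alternatives, with an adjusted p of up to 0.108. *Mef2c*, a transcription factor gene of neurons and muscle, went the other way, from 2.90, 2.64 and 3.18 RPKM in WT to 8.82, 9.53 and 9.13 RPKM in *Mll1KO* (log2 fold change 1.38, limma adjusted p = 2.48e-06). Its annotated exons have 15715 bases against a length of 6760 bases behind the RPKM, so that the model counted by the authors may differ. *Jmjd1c* at -0.11 and *Pbx3* at -0.05 were not called. Over all these lists outside the family, 39 of 49 genes were listed, of which 5 were lower and 4 higher, with a median log2 fold change of -0.05. As shares these were near the 14.5% lower and 8.81% higher among all genes.

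The genes most like *Kmt2a* over the 6 samples, by Pearson correlation of log2(RPKM + 1), were *Mmp16* (r = 0.9991), *Kcne1l* (0.999) and *Itga6* (0.9988), chosen as the highest of 11329 genes outside the family. All 3 were lower in *Mll1KO*, at 69.1%, 64.0% and 80.5% of WT. Those most like *Kmt2b* were *Tmem178b* (r = 0.9976), *Dnm2* (0.997) and *Ccdc174* (0.9968), at 85.6%, 87.4% and 87.7% of WT. Of these, *Ccdc174* did not pass the test (limma adjusted p = 0.0986). These coefficients describe 6 points in a pair of genotype groups, and 1320 genes had an r above 0.9 with *Kmt2a* and 1018 with *Kmt2b*.

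Retinal cell type markers moved with genotype beside the family, and their counts stand beside 14.5% of all genes called lower and 8.81% called higher. Of 8 cone markers 6 were higher and *Opn1sw*, the most abundant in WT, was lower (sums of 343, 358 and 374 RPKM in WT and 412, 429 and 449 RPKM in *Mll1KO*). Markers of Muller glia, led by *Glul*, were higher for 6 of 8, with sums of 1320, 1300 and 1440 RPKM in WT and 1740, 1830 and 1790 RPKM in *Mll1KO*. Cone and glial marker RNA thus made up more of each *Mll1KO* library.

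Markers of ganglion, horizontal and amacrine cells differed between these cell types, again beside 14.5% lower and 8.81% higher among all genes. Ganglion cell markers, led by *Sncg*, were lower for 7 of 8 and summed to 529, 490 and 516 RPKM in WT and 414, 367 and 338 RPKM in *Mll1KO*. Horizontal cell markers, led by *Sept4*, were lower for 5 of 6 (138, 142 and 138 RPKM against 95.7, 98.8 and 103 RPKM). Of 9 amacrine markers, led by *Slc32a1*, 4 were lower and 2 higher, with sums of 224, 214 and 224 RPKM in WT and 217, 215 and 242 RPKM in *Mll1KO*. In whole retina, fewer cells of a type and less RNA per cell cannot be told apart, and the part of these marker changes in the lower levels of *Kmt2b*, *Kmt2d* and *Setd1b* was not tested.

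Markers of other tissues were checked in the same way. The endothelial markers *Kdr*, the most abundant, and *Cldn5* were lower, 2 of 5 listed against 14.5% of all genes, with sums of 77.5, 76.1 and 74.0 RPKM in WT and 58.2, 50.9 and 52.1 RPKM in *Mll1KO*. Of the 3 not called, *Cdh5* and *Pecam1* had all *Mll1KO* values below and *Tek* all above the WT values, named after their values were seen. Microglial (3 listed, led by *C1qb*), pigment epithelial (3 listed, led by *Ttr*) and lens markers (2 listed, led by *Cryab*) had no call. The pigment epithelial sums varied within each genotype, at 153, 85.8 and 228 RPKM for the WT libraries and 73.3, 144 and 74.8 RPKM in *Mll1KO* samples a, b and c, while *Rpe65*, *Best1* and *Lrat* were not listed. No listed marker was at 0 in any library.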

How the data were processed

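RNA from P14 retinas of 3 *Mll1KO* and 3 WT samples was sequenced as single-end reads. The authors aligned reads with STAR 2.0.4b to a build that the submitters' processing notes give as mm10 and the methods name differently, counted them per gene with featureCounts 1.45 of Subread, and kept genes above 5 CPM in at least 5 samples. From these reads the authors computed the deposited RPKM, that is, reads per gene length and library total. The table also held the log2 fold change, log2 mean CPM, p-value and FDR of the authors' own edgeR comparison, none of which was used.

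The table's 11404 lines held 11339 genes, as 59 gene IDs stood in several lines with equal values, and 18 symbols turned into dates were restored from gene IDs. RPKM was compared as log2(RPKM + 1) with limma 3.58.1 (R 4.3.3), with a variance trend on the mean, genotype alone, and Benjamini-Hochberg adjustment over all 11339 genes at 0.05, two-sided. This took the place of the count test of the authors, since RPKM are not counts. The pseudocount of 1 understates changes of low genes. Library totals and gene lengths were recovered as the values at which RPKM converts to whole reads (tolerance 0.05), which held for 100% of genes, and 98.4% of reads lay on the listed genes. Where several lengths fitted (703 genes) the annotated length was taken, or else the smallest. Gene positions, exons and overlaps came from GENCODE vM21 (GRCm38), matched by gene ID for 11323 genes, and promoters from RefSeq. The procedure was also tried on simulated reads, the outcome of which is not reported here. Sums were compared with exact permutation tests in SciPy 1.17.1.

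The members and gene lists were chosen with earlier results of these data known. Named genes are the 10 members, of each list of related genes those past the threshold and the highest and lowest of the rest, *Xist*, and the 3 genes most correlated with *Kmt2a* and with *Kmt2b*. Of each cell type list reported here the most abundant marker was named, and of the endothelial list all listed markers. The alternatives were pseudocounts of 0.1 and 5, TMM-type and median-of-ratios factors, a minimum mean of 1 RPKM, limma-voom on recovered reads, no variance trend, a term for the replicate letter, leaving out each library, and removal of a trend on gene length. Outside the fit, *Kmt2a* per length kept and sums without *Kmt2e* were added after seeing the data.

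Some planned cell type marker results are not reported here.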

Additional observations from a re-analysis of the deposited data

How the results depend on the processing

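Over 15 alternatives of the fit, 14 planned and 1 chosen after seeing the data, *Kmt2a* was called lower each time, with log2 fold changes from -0.72 to -0.61 and limma adjusted p from 3.69e-07 to 0.000427, and no gene of the family was called higher. *Kmt2b* was called lower under 12 (-0.21 to -0.13, adjusted p from 0.00527 to 0.0606), *Setd1b* under 11 (-0.24 to -0.14, 0.00555 to 0.0750) and *Kmt2d* under 8 (-0.25 to -0.12, 0.0103 to 0.105). Leaving out a library, which leaves fewer samples, moved the number of family genes called lower from 4 to between 1 and 4, of all genes called from 2643 to between 1704 and 2536, and of genes called lower from 1644 to between 1030 and 1559. With the gene-length trend removed, 1 family gene was called; the cause was not tested. Signs changed only for genes without a call. *Setd1a* was at 0.0085 with TMM-type factors, 0.012 with median-of-ratios factors, 0.008 without WT sample a and 0.021 without the length trend, *Kmt2c* at 0.0018 without the length trend, and *Men1* at -0.011 without *Mll1KO* sample a. Over the libraries left out, *Setd1a* ranged from -0.053 to 0.008 and *Men1* from -0.011 to 0.063. Outside the fits, with *Kmt2a* per length kept, chosen after seeing the data, its *Mll1KO* level moved from 21.8 to 26.3 RPKM and the levels of *Kmt2b* and *Men1* relative to it from 1.22 to 1.01 and from 1.09 to 0.905. TMM-type and median-of-ratios factors moved the median of all genes by 0.03 on the log2 scale, and the lower calls from 14.5% to 10.4% and 9.93% of genes.

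The letters a, b and c are shared by the genotypes, but samples with the same letter did not deviate together. The correlations of their deviations from the group means, across genes, were -0.039, -0.19 and -0.007. With the letter as a replicate block, 2242 genes were called, 1347 lower and 895 higher, and the same 4 family genes were called lower.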

Other observations

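*Xist*, the RNA that coats the inactive X chromosome of females, was at 71.7, 75.8 and 72.5 RPKM in the WT libraries and at 130, 0.59 and 128 RPKM in the *Mll1KO* libraries, in the order a, b, c. The labels give no sex, and *Ddx3y*, *Uty*, *Eif2s3y* and *Kdm5d* were not listed. *Mll1KO* sample b was thus almost without *Xist*, while the 3 WT samples lay between the extremes. The X-linked *Kdm6a* and *Kdm5c*, which escape X inactivation, followed the same order within *Mll1KO* in that sample b was lowest. *Kdm6a*, a demethylase that belongs to the MLL3 and MLL4 complexes, was at 11.3, 7.45 and 12.4 RPKM in *Mll1KO* samples a, b and c, against 9.71 to 10.3 RPKM in WT. *Kdm5c*, an H3K4 demethylase, was at 47.1, 31.4 and 43.0 RPKM, against 35.1 to 37.1 RPKM in WT. All 10 family genes are autosomal, and without *Mll1KO* sample b *Kmt2a* had a log2 fold change of -0.65 (limma adjusted p = 8.42e-05) and *Kmt2b* one of -0.19 (0.0320), while *Kmt2d* at -0.20 (0.0692) and *Setd1b* at -0.18 (0.0643) lost their calls with 1 library fewer, against -0.20 each with all libraries.

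Promoter sequence was available for 6 of the 10 genes, as windows of 300 bases in RefSeq (GRCm38.p6). Counted on the strand given, the dinucleotide CG occurred 56 times in the window of *Kmt2c*, 36 times in *Kmt2a*, 35 times in *Setd1a*, 27 times in *Kmt2d* and 22 times in *Wdr5*, against a median of 7 over 32851 windows. At least as many were found in 0.2%, 6.2%, 7.0%, 15.5% and 23.1% of all windows. The windows of *Men1* held 11, 16 and 16, and at least as many were found in 41.4%, 33.0% and 33.0% of all windows.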
